A study of Homo sapiens with 4 samples.

Results

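Epi-like cells are the cells of a human blastoid, a stem cell model of the blastocyst, that express epiblast rather than trophectoderm (TE) genes. They were chosen by measured values. A barcode was kept where 1 hashtag held at least 80% of its hashtag UMIs (unique molecular identifiers), mitochondrial UMIs were at most 15%, and total UMIs reached 7000 in run 1 or 5000 in run 2. A kept cell was called Epi-like where its UMI counts of KRT8, KRT18, GATA3 and CLDN4 together did not exceed those of POU5F1, DPPA5, DPPA4, L1TD1 and TDGF1. This rule selected 10445 of the 10902 blastoid cells and of the 13017 cells kept in the whole series, and the other 457 blastoid cells were TE-like. The rule rarely had to decide a close case. Within 5 UMIs of equality, 8 cells of the second capture run lay just inside the rule (medians 22.0 epiblast and 20.0 trophectoderm rule UMIs), and 2 cells of the first run and 8 of the second lay just outside.

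The epiblast founds the embryo proper. Its naive cells in culture hold a network of transcription factors around OCT4, SOX2 and NANOG, together with genes that mark the epiblast before implantation. As epiblast matures towards implantation, NODAL and FGF signals take over its upkeep and formative genes come on. Alpha-ketoglutarate (αKG) is a tricarboxylic acid (TCA) cycle intermediate that also serves as a co-substrate for dioxygenases removing methyl groups from histones and DNA.

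Naive human embryonic stem cells labelled as the H9 line and kept in PXGL medium were aggregated in microwells and differentiated into blastoids for 120 h, with dimethyl-αKG (dm-αKG), a cell-permeable form, at 0 or 4 mM during the first 40 h. The cells compared therefore came from cultures to which no dm-αKG was added after 40 h. How much was left at 120 h is not given. Each arm, 1 hashtagged culture of 1 dose in 1 capture run, was sequenced by droplet 3′ RNA-seq, and 2 runs gave 2 arms per dose. Blastoids with a single cavity were picked by hand, so blastoids without one do not enter, and by the study's account dissociation cost more of the fragile TE cells than of the others. In a check for mixed-up samples, 2 mRNA libraries did not match their cell line label, so the line is named here only as labelled.

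The arms held 360 Epi-like cells at 0 mM and 1006 at 4 mM in run 1. Run 2 gave 3978 at 0 mM and 5101 at 4 mM. Their median depths were 28953 and 30049 UMIs in run 1 and 15657 and 15501 UMIs in run 2, so depth differed between runs far more than between doses. Quality did move with dose before filtering. The share of single-hashtag barcodes over the limit of 15% mitochondrial UMIs went from 46.0% at 0 mM to 17.8% at 4 mM for run 1 cultures, and from 13.6% to 9.68% for run 2 cultures. Among the Epi-like cells kept, the median mitochondrial share lay between 4.01% and 4.48% in every arm. The median hashtag share was 93.1% and 94.2% in run 1, and 97.6% and 94.2% in run 2. The part of these differences in the results below was not tested beyond the alternatives given with them. Both runs shared 5 barcode sequences among kept blastoid cells.

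The label was checked on genes of the rule and on markers outside it. POU5F1, which encodes OCT4, stood at 861 and 888 CPM at 0 mM and 949 and 882 CPM at 4 mM (CPM, the gene's part of all UMIs of the arm on the usual scale, given for run 1 and then run 2 throughout). DPPA5, a marker of the naive state, stood at 2454 and 2509 CPM at 0 mM and 2009.9 and 2335 CPM at 4 mM. KRT18, a keratin of the trophectoderm side of the rule, stood at 181 and 191 CPM at 0 mM and 264 and 225 CPM at 4 mM. As these genes chose the cells, their levels are a description. The 18 tested trophectoderm markers outside the rule summed to 154 and 169 CPM at 0 mM and 128 and 146 CPM at 4 mM in Epi-like cells, against 2920.3 and 2718 CPM at 0 mM and 5904 and 4799 CPM at 4 mM in TE-like cells. The trophectoderm genes CDX2, HAND1 and GATA2 were near 0 in Epi-like cells, at a mean of 0.60, 0.26 and 1.71 CPM. Other members of the list were not, as ELF3 and KRT19 had means of at least 20 CPM there. Markers of amnion and mesoderm summed to under 10 CPM in every arm, and those of primitive endoderm to between 61.1 and 73.0 CPM. SOX2, which is outside the rule, stood at 77.5 and 69.7 CPM at 0 mM and 118 and 94.9 CPM at 4 mM in Epi-like cells and at 4.11 and 22.8 CPM at 0 mM and 4.28 and 15.5 CPM at 4 mM in TE-like cells, so these markers gave no reason to change the label. The trophectoderm sum was lower at 4 mM in both runs, with 1 of the 18 genes risen and 5 fallen, and its part in the results was not tested.

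Across all genes, 4 mM moved many genes of Epi-like cells by a small amount. By edgeR's quasi-likelihood test on the UMI sums of the 4 arms, with run in the model, 1280 of 17094 genes rose (7.49%) and 932 fell (5.45%) at an adjusted p under 0.05. The median size of these changes was 0.31 on the log2 scale, a 1.24-fold difference. In 2202 of these genes both runs moved the same way, and in 10 they did not. The test that chose them used both runs, so this count follows largely from the choice. Among all genes at 20 CPM or more, both runs moved the same way in 77.1%. The test had 1 residual degree of freedom and took its spread almost wholly from all genes together (611 prior degrees of freedom). The p-values and SEs given throughout therefore rest on a spread pooled over genes, from 2 pairs of cultures. A gene's own disagreement between its 2 runs hardly enters them. DESeq2 on the same sums gave 208 rises and 100 falls. With a hashtag share of at least 95%, edgeR called 428 and 270. With 1 arm left out there is no run term, and 0 genes rose and 0 fell when either 0 mM arm was left out, 37 rose and 12 fell without the 4 mM arm of run 1, and 377 rose and 237 fell without that of run 2. At an unadjusted p under 0.05 in edgeR, leaving out the 0 mM arm of run 1 left 725 positive and 458 negative genes, and leaving out that of run 2 left 828 and 526.

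**Figure D1:**
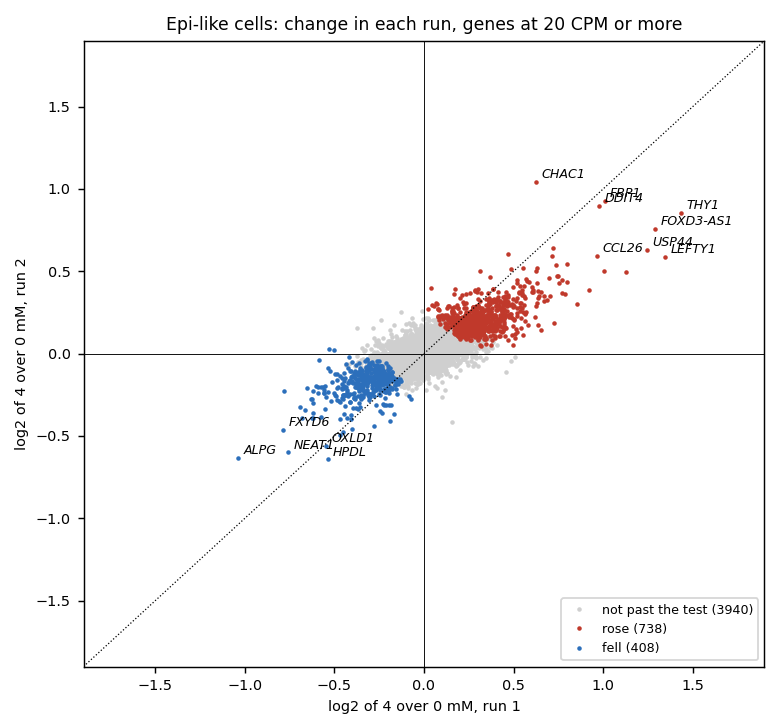
Change in each run for genes at 20 CPM or more in Epi-like cells. Each point is a gene, the axes give the log2 ratio of 4 over 0 mM in run 1 and run 2, and the dotted line marks equal change. Among the 738 genes that rose and the 408 that fell, the median size of change was 0.30 in run 1 and 0.19 in run 2.

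Longer transcripts rose more often than shorter ones. Of genes at 20 CPM or more, split into 4 groups of equal size, the group with the shortest transcripts (median of the longest annotated transcript 1529 nt) held 76 rises and 184 falls, and that with the longest (7467 nt) held 274 rises and 56 falls. Medians of the log2 change ran from -0.04 to 0.06 across these groups. With this trend removed in an added fit, 954 genes rose and 1134 fell, so the excess of rises over falls turned around, while all 24 of the genes with the largest changes described next still passed.

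Among genes with a mean of at least 20 CPM over the 4 arms, those with the largest fitted changes are described next. THY1, CHAC1, USP44 and CCL26 stood below 20 CPM in both 0 mM arms and reached that mean through their 4 mM arms, and OXLD1 and PITPNA-AS1 reached it through their 0 mM arms, so no rank is read from their place. THY1 encodes the surface protein CD90, a marker of primed pluripotent cells. THY1 stood at 14.6 and 16.0 CPM at 0 mM and 40.9 and 29.1 CPM at 4 mM, so both 4 mM arms lay above both 0 mM arms (log2 change 1.05 ± 0.074 (SE), adjusted p = 6.61e-36, 2.07-fold). Reads of THY1 were spread over more cells at 4 mM. When every cell was thinned to 5000 UMIs, THY1 was detected in 5.28% and 7.21% of cells at 0 mM and 16.3% and 11.5% at 4 mM (95% exact intervals at 0 mM 3.21 to 8.12% and 6.43 to 8.06%, at 4 mM 14.1 to 18.7% and 10.7 to 12.4%). In TE-like cells the share stayed between 0 and 1.14%, with 0 of 18 and 0 of 56 cells in run 1 (upper limits of the exact interval 18.5% and 6.38%). Median depths there were 25725 and 16486 UMIs at 0 mM and 32758 and 16487 UMIs at 4 mM. Without thinning, the shares in Epi-like cells were 26.1% and 17.8% at 0 mM and 47.9% and 27.8% at 4 mM. These intervals cover counting error only.

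FBP1 encodes fructose-1,6-bisphosphatase, an enzyme of gluconeogenesis. It went from 22.6 to 46.9 CPM (run 1) and 20.5 to 39.2 CPM (run 2) (log2 change 0.97 ± 0.069 (SE), adjusted p = 6.61e-36), nearly the same change in both runs. DDIT4, an inhibitor of the growth kinase mTORC1, went from 92.1 to 185 CPM (run 1) and 77.0 to 143 CPM (run 2) (log2 change 0.93 ± 0.055 (SE), adjusted p = 1.36e-48). DDIT4 was found in 33.1% and 27.2% of cells at 0 mM and 54.0% and 44.8% at 4 mM after thinning, and in 22.2% and 22.1% of TE-like cells at 0 mM and 26.8% and 29.7% at 4 mM. The chemokine gene CCL26 stood at 14.3 and 15.8 CPM at 0 mM and 28.9 and 23.9 CPM at 4 mM (log2 change 0.72 ± 0.077 (SE), adjusted p = 8.35e-17).

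The long noncoding RNA FOXD3-AS1 lies across FOXD3 on the opposite strand (GRCh38, chr1:63320878-63324441 and chr1:63322567-63325128). It stood at 30.1 and 27.7 CPM at 0 mM and 75.6 and 46.9 CPM at 4 mM (log2 change 0.96 ± 0.065 (SE), adjusted p = 4.14e-39). FOXD3, a transcription factor of the pluripotent epiblast, stood at 8.56 and 8.23 CPM at 0 mM and 21.6 and 14.4 CPM at 4 mM (log2 change 0.95 ± 0.091 (SE), adjusted p = 7.41e-21). The strand setting of the counting is not given in the sources used here, so reads in the overlap may belong to either gene. USP44, a deubiquitinase expressed in pluripotent cells, stood at 14.5 and 14.6 CPM at 0 mM and 35.6 and 22.7 CPM at 4 mM (log2 change 0.84 ± 0.077 (SE), adjusted p = 2.47e-22). The transcription factor gene BCL11A (from 29.4 to 49.8 CPM (run 1) and 30.2 to 47.0 CPM (run 2), 0.68) and TNRC6C, a partner of Argonaute in microRNA silencing (from 23.2 to 39.2 CPM (run 1) and 23.8 to 36.0 CPM (run 2), 0.64), changed to a similar extent in both runs.

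**Figure D2:**
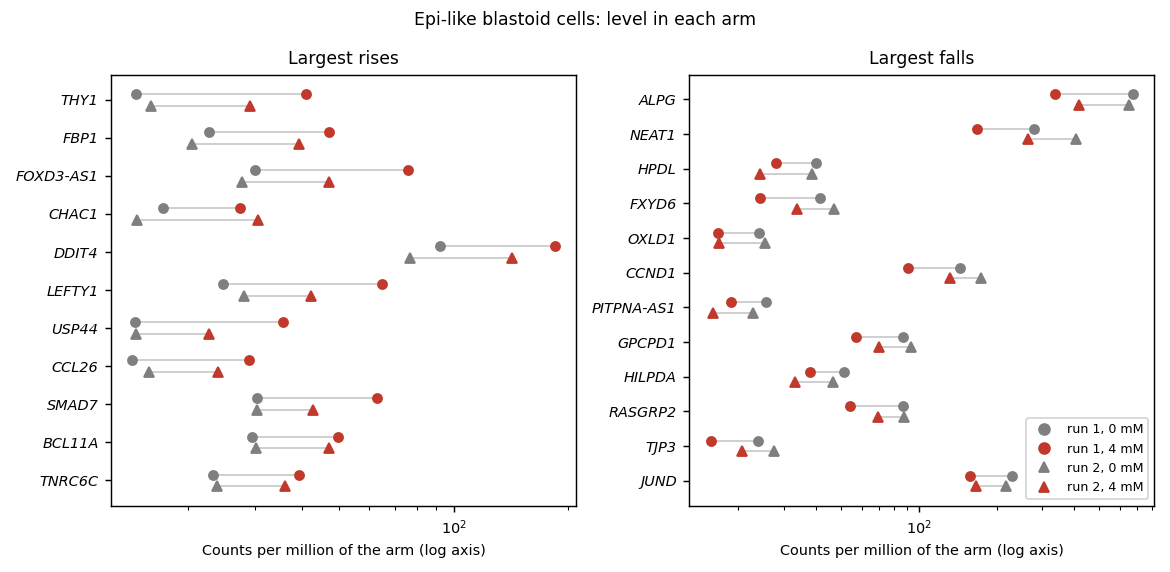
Level of 11 genes with the largest rises and 12 with the largest falls in each arm of Epi-like cells, in CPM on a log axis. Circles are run 1, triangles run 2, grey 0 mM and red 4 mM. In all genes shown both 4 mM arms lie on the same side of both 0 mM arms, for NEAT1 too, whose lowest 0 mM arm is at 279.5 CPM and highest 4 mM arm at 266 CPM. The genes were chosen for a change in both runs.

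ALPG is an alkaline phosphatase gene of naive pluripotent cells whose reads may be shared with its near copy ALPP. It stood at 677 and 654 CPM at 0 mM and 336 and 418 CPM at 4 mM (log2 change -0.83 ± 0.051 (SE), adjusted p = 7.53e-46). It was found in 83.9% and 85.7% of cells at 0 mM and 69.4% and 75.3% at 4 mM after thinning, and in 66.7% and 71.6% of TE-like cells at 0 mM and 26.8% and 33.7% at 4 mM. NEAT1, the nuclear RNA that scaffolds paraspeckles, went from 279.5 to 168 CPM (run 1) and 406 to 266 CPM (run 2) (log2 change -0.67 ± 0.052 (SE), adjusted p = 7.21e-31). HPDL, a mitochondrial protein gene linked to coenzyme Q synthesis, stood at 40.0 and 38.5 CPM at 0 mM and 27.9 and 24.3 CPM at 4 mM (log2 change -0.61 ± 0.067 (SE), adjusted p = 3.05e-16). CCND1, which encodes the G1 cyclin D1, went from 144 to 91.1 CPM (run 1) and 175 to 132 CPM (run 2) (log2 change -0.52 ± 0.055 (SE), adjusted p = 3.75e-17). Its relative CCND2 moved the other way, from 56.4 to 100.3 CPM (run 1) and 74.9 to 101 CPM (run 2) (log2 change 0.58 ± 0.058 (SE), adjusted p = 5.50e-19), but stood at -0.0058 in G1 cells alone. JUND, a subunit of the AP-1 transcription factor, stood at 230.4 and 219 CPM at 0 mM and 157 and 166 CPM at 4 mM (log2 change -0.47 ± 0.053 (SE), adjusted p = 1.72e-15). The other falls were in FXYD6 (-0.58), OXLD1 (-0.57), the antisense RNA PITPNA-AS1 (-0.50), GPCPD1 (-0.49), the lipid droplet gene HILPDA (-0.47), RASGRP2 (-0.47) and the tight junction gene TJP3 (-0.47), all as log2 changes. Of the 24 genes, 20 passed in DESeq2 as well, and LEFTY1, SMAD7 and RASGRP2 were among those that did not. With Epi-like cells called G1 alone, 20 of the 24 passed, and with S or G2/M cells alone all 24 did.

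**Figure D3:**
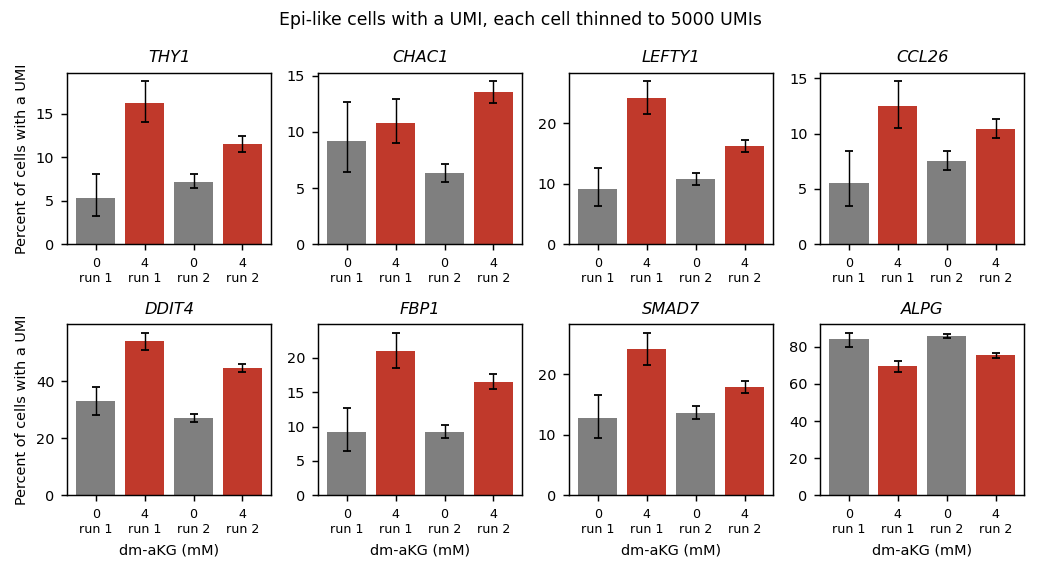
Share of Epi-like cells with at least 1 UMI of 8 named genes in each arm, after thinning each cell to 5000 UMIs. Bars start at 0 and error bars are 95% exact binomial intervals. The share of cells with THY1 went from 5.28% to 16.3% in run 1, and that of cells with ALPG from 83.9% to 69.4%.

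List counts from here on stand beside the shares over all genes tested, 7.49% risen and 5.45% fallen. At 20 CPM or more, 738 of 5087 genes rose and 408 of 5087 fell. A list count near these shares is not read as a result about its genes. Most core pluripotency genes were higher at 4 mM. Of the 10 tested outside the cell rule, 7 rose and 0 fell, with a median log2 change of 0.33 against -0.01 over all genes tested. No negative change reached an unadjusted p under 0.05 here, and DESeq2 called none either. SOX2 stood at 77.5 and 69.7 CPM at 0 mM and 118 and 94.9 CPM at 4 mM (log2 change 0.51 ± 0.057 (SE), adjusted p = 2.11e-15), and NANOG, the homeobox factor of the epiblast, at 142 and 135 CPM at 0 mM and 208 and 163 CPM at 4 mM (log2 change 0.39 ± 0.054 (SE), adjusted p = 2.84e-10). LIN28A, an RNA-binding protein that blocks let-7 microRNA maturation, went from 149 to 222 CPM (run 1) and 144 to 185 CPM (run 2) (log2 change 0.45 ± 0.053 (SE), adjusted p = 7.01e-14). SALL4 rose by 0.46, TRIM71 by 0.27 and LIN28B by 0.16 on the log2 scale. Genes under 20 CPM and list members beyond the naming rule, here and in the groups that follow, were chosen after their values were seen. UTF1, PRDM14 and ZSCAN10 did not pass (-0.080, 0.11 and 0.17). In single cells thinned to 5000 UMIs, the summed count of the list without its rule genes had a median of 5 (2 to 9) UMIs (10th to 90th percentile) at 0 mM and 7 (3 to 12) at 4 mM in run 1, and of 5 (2 to 10) and 6 (3 to 11) in run 2. The ranges of both doses overlapped.

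Genes of naive pluripotency split. Of 29 tested genes outside the rule, 6 rose and 8 fell, and the summed level was 6911 and 6894 CPM at 0 mM and 5655 and 6094 CPM at 4 mM. Highly counted genes weigh most in such a sum, and the median log2 change over the 29 genes was 0.02. The falls included KHDC1L (from 2993 to 2232 CPM (run 1) and 2897 to 2414 CPM (run 2), log2 change -0.35 ± 0.048 (SE), adjusted p = 2.44e-10), and the naive surface gene CD70 (-0.36), IFI16 (-0.39) and ALPG. Among the rises were the factors KLF17 (from 24.0 to 38.7 CPM (run 1) and 26.4 to 34.1 CPM (run 2), log2 change 0.47 ± 0.068 (SE), adjusted p = 2.22e-09), ARGFX (from 9.61 to 17.4 CPM (run 1) and 9.34 to 14.7 CPM (run 2), 0.71), DPPA3 (0.20) and the naive surface marker SUSD2 (0.18). Further naive factors did not pass, with KLF4 at 0.17 and TFCP2L1 at 0.11. Of 27 formative and primed genes, 12 rose and 1 fell. TCF7L1, a repressor of WNT targets, stood at 6.37 and 7.73 CPM at 0 mM and 16.8 and 12.7 CPM at 4 mM (log2 change 0.89 ± 0.096 (SE), adjusted p = 1.18e-16). DNMT3B, the de novo DNA methyltransferase of the postimplantation epiblast, went from 212 to 317 CPM (run 1) and 209.8 to 248 CPM (run 2) (log2 change 0.39 ± 0.052 (SE), adjusted p = 4.98e-11). OTX2, by which the formative state is best known, did not pass (from 9.13 to 6.32 CPM (run 1) and 10.4 to 9.74 CPM (run 2), -0.20), nor did VIM (0.075). TUBB3 was the gene that fell (-0.30).

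NODAL signals through SMAD proteins and keeps up its own expression in the epiblast. Of 27 tested NODAL and TGF-β genes outside the rule, 11 rose and 1 fell. The ligand gene NODAL stood at 69.2 and 78.2 CPM at 0 mM and 134 and 102 CPM at 4 mM (log2 change 0.61 ± 0.057 (SE), adjusted p = 4.73e-21), and its feedback antagonist LEFTY1 at 24.6 and 28.1 CPM at 0 mM and 64.6 and 42.1 CPM at 4 mM (log2 change 0.85 ± 0.067 (SE), adjusted p = 4.13e-30). Not all reads of LEFTY1 may be told from those of its near copy LEFTY2. LEFTY2 was counted far lower (1.24 and 2.64 CPM at 0 mM and 6.82 and 3.38 CPM at 4 mM, 0.79). SMAD7, the inhibitory SMAD that NODAL and TGF-β signals induce, went from 30.4 to 62.8 CPM (run 1) and 30.3 to 42.7 CPM (run 2) (log2 change 0.69 ± 0.065 (SE), adjusted p = 3.36e-21). PMEPA1, another such target, went from 32.9 to 58.7 CPM (run 1) and 31.5 to 45.7 CPM (run 2) (0.64), and SKIL, a SMAD corepressor, from 87.6 to 146 CPM (run 1) and 89.2 to 113 CPM (run 2) (0.50). Of the pathway's own transducers, SMAD4 rose by 0.26, SMAD2 (0.034) and FOXH1 (-0.042) did not pass, and the type I receptor gene ACVR1B fell (-0.34). In every NODAL gene named with levels for each arm, both 4 mM arms were above both 0 mM arms. These genes were named because they passed on these arms or after their values were seen, so this follows largely from the choice. DESeq2 called 2 rises and 0 falls in this list.

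Other signalling lists also held calls. Of 13 BMP genes 6 rose and 0 fell (0 negative at an unadjusted p under 0.05 and 0 in DESeq2), with the receptor gene BMPR1A at 20.5 and 21.0 CPM at 0 mM and 31.5 and 28.3 CPM at 4 mM (0.49) and the target ID1 at 103 and 101 CPM at 0 mM and 123 and 118 CPM at 4 mM (0.23). Of 17 genes that report or restrain ERK signalling, 9 rose and 1 fell. PHLDA1 went from 21.7 to 32.7 CPM (run 1) and 22.5 to 29.8 CPM (run 2) (log2 change 0.47 ± 0.071 (SE), adjusted p = 1.53e-08), and the ERK inhibitors SPRED2 (0.36), SPRY1 (0.51), SPRY4 (0.46) and SPRY2 (0.20) rose, while DUSP6, the gene the list is known by, stood at 2.85 and 3.37 CPM at 0 mM and 3.84 and 2.63 CPM at 4 mM and did not pass. The gene that fell was CCND1. The receptor gene FGFR1 went from 51.4 to 83.6 CPM (run 1) and 57.4 to 72.8 CPM (run 2) (log2 change 0.48 ± 0.059 (SE), adjusted p = 1.50e-12), and FGF4, the ligand of the epiblast, did not pass (0.076). Of 14 WNT genes 6 rose and 1 fell, with TCF7L2 up (0.58), SFRP1 down (-0.36) and AXIN2 not passing (0.15). Of 16 Hippo genes 4 fell, namely CCN1 (-0.51), AMOTL2 (-0.36), TEAD1 (-0.32) and LATS2 (-0.28). None of them rose by edgeR (1 at an unadjusted p under 0.05) or by DESeq2, which called 0 falls.

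ATF4 is the transcription factor of the integrated stress response, which amino acid shortage sets off. Of 30 tested ATF4 targets, 15 rose and 2 fell. CHAC1, which degrades glutathione, went from 17.2 to 27.3 CPM (run 1) and 14.7 to 30.5 CPM (run 2) (log2 change 0.94 ± 0.076 (SE), adjusted p = 6.63e-28), and it changed more in run 2 than in run 1, whereas 19 of the 24 genes changed more in run 1. SLC7A11, the cystine carrier, stood at 30.7 and 27.9 CPM at 0 mM and 44 and 39.8 CPM at 4 mM (log2 change 0.51 ± 0.066 (SE), adjusted p = 9.99e-12), and the secreted glycoprotein gene STC2 at 66.6 and 70.9 CPM at 0 mM and 93.8 and 87.7 CPM at 4 mM (0.38). PSAT1, an enzyme of serine synthesis that makes αKG from glutamate, went from 150.2 to 229 CPM (run 1) and 148 to 165 CPM (run 2) (log2 change 0.36 ± 0.054 (SE), adjusted p = 1.08e-08). Asparagine synthetase, ASNS, was low at 2.38 and 2.88 CPM at 0 mM and 3.87 and 4.39 CPM at 4 mM and rose by 0.63. ATF4 itself (0.12), DDIT3 (0.15) and TRIB3 (0.098) did not pass, and GDF15 (-0.29) and SLC7A5 (-0.16) fell. DESeq2 called 5 rises and 0 falls in this list.

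ATF4 binds a composite element that starts with TGATG. The promoters of the 4 risen ATF4 targets that held the letters TGATGNAA on either strand are shown for the sequence they share, taken from RefSeq promoters of GRCh38.p14, 250 bases before to 50 after each gene start, 5′ to 3′ in the direction of the gene, with the match in capitals (in CHAC1 it is read on the other strand). The match starts 209 bases upstream of the start in CHAC1 (chr15:40953221-40953520, plus strand), 68 in ASNS (chr7:97872359-97872658, minus strand) and 191 in ATF3 (chr1:212565157-212565456, plus strand), and 7 bases downstream in SLC7A1 (chr13:29595639-29595938, minus strand).
CHAC1: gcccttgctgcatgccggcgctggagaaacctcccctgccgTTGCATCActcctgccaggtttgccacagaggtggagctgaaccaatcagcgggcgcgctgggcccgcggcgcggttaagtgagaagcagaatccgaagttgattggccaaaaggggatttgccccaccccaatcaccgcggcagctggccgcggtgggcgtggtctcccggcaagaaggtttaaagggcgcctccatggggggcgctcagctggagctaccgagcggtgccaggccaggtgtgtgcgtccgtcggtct
ASNS: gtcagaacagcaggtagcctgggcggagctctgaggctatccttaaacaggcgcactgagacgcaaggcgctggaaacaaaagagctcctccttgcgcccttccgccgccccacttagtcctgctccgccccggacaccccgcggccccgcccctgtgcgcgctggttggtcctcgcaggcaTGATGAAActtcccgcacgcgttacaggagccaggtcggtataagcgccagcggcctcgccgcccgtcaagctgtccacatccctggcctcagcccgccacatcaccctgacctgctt
ATF3: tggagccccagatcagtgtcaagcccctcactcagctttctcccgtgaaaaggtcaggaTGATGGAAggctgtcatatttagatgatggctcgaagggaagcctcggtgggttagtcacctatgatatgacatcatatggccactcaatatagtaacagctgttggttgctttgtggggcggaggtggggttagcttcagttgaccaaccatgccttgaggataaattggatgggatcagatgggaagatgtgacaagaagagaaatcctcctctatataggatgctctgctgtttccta
SLC7A1: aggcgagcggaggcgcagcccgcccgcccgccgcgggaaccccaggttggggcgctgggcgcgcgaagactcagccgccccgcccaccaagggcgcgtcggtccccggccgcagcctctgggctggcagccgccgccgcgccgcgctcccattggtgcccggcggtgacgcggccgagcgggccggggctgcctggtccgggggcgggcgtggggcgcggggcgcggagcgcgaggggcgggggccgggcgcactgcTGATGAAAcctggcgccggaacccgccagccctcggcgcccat
Of the 30 list genes, 24 had a promoter in the table. The letters stood in 4 of 12 that rose and in 1 of 12 that did not (SLC3A2), against 3.67% of 27305 promoters. Searches for 3 other motifs in their own lists, on both strands, are given beside it. The SMAD palindrome GTCTAGAC stood in 0 of 8 NODAL and TGF-β genes that rose and 1 of 13 others (0.201% of all promoters), and the sterol element TCACNCCAC in 0 of 6 cholesterol genes that rose and 1 of 12 others (1.15%). The metal response element core TGCNCNC stood in 2 of 2 metallothioneins that rose and 1 of 1 other, and in 55.2% of all promoters. A match is a description of the sequence and was not tested as a binding site.

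Calls in the metabolic lists differed in number, beside 738 rises and 408 falls among the 5087 genes at 20 CPM or more. Of 25 genes for αKG and glutamate, 8 rose and 1 fell. The glutamine carrier gene SLC38A2 stood at 56.9 and 68.4 CPM at 0 mM and 97.4 and 94.3 CPM at 4 mM (log2 change 0.58 ± 0.058 (SE), adjusted p = 4.95e-19), and BCAT1, a transaminase that turns αKG into glutamate, at 95.6 and 95.5 CPM at 0 mM and 148 and 126 CPM at 4 mM (log2 change 0.49 ± 0.055 (SE), adjusted p = 2.63e-15). Of 14 serine and one-carbon genes 5 rose and 0 fell (1 negative at an unadjusted p under 0.05, 0 in DESeq2). Among 35 TCA cycle and pyruvate genes 0 rose and 3 fell, namely ME2 (-0.23), SDHB (-0.19) and MDH2 (-0.18). These falls are near the share among genes at 20 CPM or more, so they are not read as a result about the list. Of the 35, 20 were lower at 4 mM in both runs and 1 was higher in both. No positive change of this list reached an unadjusted p under 0.05, and DESeq2 called 0 in either direction. Of 71 nuclear genes of oxidative phosphorylation 10 fell and 0 rose, led by COX7B (from 453 to 357 CPM (run 1) and 403 to 367 CPM (run 2), log2 change -0.24 ± 0.051 (SE), adjusted p = 0.000105). With singlets called by HTODemux, the study's own method, 1 of the 71 fell, and DESeq2 called 1 fall and 0 rises, so this count rests on the choice of cells and test. At an unadjusted p under 0.05, 1 of the 71 was positive.

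Of 25 glycolysis genes 10 rose and 1 fell. PGM1, which links glycogen to glycolysis, stood at 10.4 and 11.5 CPM at 0 mM and 26.1 and 21.8 CPM at 4 mM (log2 change 1.03 ± 0.082 (SE), adjusted p = 4.82e-29), and LDHA, which makes lactate, at 633 and 657 CPM at 0 mM and 800.0 and 924 CPM at 4 mM (log2 change 0.41 ± 0.05 (SE), adjusted p = 3.82e-13). HK2 rose by 0.34 and PGK1 by 0.27, GAPDH did not pass (0.11), and ENO2 fell (-0.34). The hypoxia list was mixed at 5 rises, BNIP3 (0.27) among them, and 3 falls, and VEGFA did not pass (0.19). Of 25 genes of cholesterol supply 10 rose and 2 fell. SQLE, the epoxidase of sterol synthesis, stood at 111 and 119.8 CPM at 0 mM and 156 and 146 CPM at 4 mM (log2 change 0.37 ± 0.054 (SE), adjusted p = 3.53e-09). Of 12 fatty acid genes 1 rose, the desaturase gene SCD (0.25), and 1 fell, the synthase gene FASN (-0.22).

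Metallothioneins, small proteins that bind zinc and copper, rose in 6 of 8 tested genes and fell in 0. Their level depended on the run more than on the dose, with a summed 1435 and 778 CPM at 0 mM and 1768 and 855 CPM at 4 mM. Within runs, MT1H went from 152 to 261 CPM (run 1) and 59.5 to 81.9 CPM (run 2) (log2 change 0.60 ± 0.055 (SE), adjusted p = 7.03e-23) and MT1G from 358 to 456 CPM (run 1) and 167 to 196 CPM (run 2) (0.28). These genes are near copies of each other, so reads may be shared among them. No negative change reached an unadjusted p under 0.05, DESeq2 called 5 rises and 0 falls, and the run term mattered here: with 1 arm and the run term left out, MT1H, MT1E and MT1G turned negative without the 4 mM arm of run 1, and MT1E and MT1G also without the 0 mM arm of run 2.

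Among the 29 αKG-dependent dioxygenases 7 rose and 2 fell. PLOD2, a collagen lysyl hydroxylase, stood at 38.0 and 37.8 CPM at 0 mM and 50 and 51.9 CPM at 4 mM (log2 change 0.43 ± 0.063 (SE), adjusted p = 2.30e-09), and the histone demethylase gene KDM6A at 10.7 and 13.3 CPM at 0 mM and 16.3 and 15.2 CPM at 4 mM (0.31). EGLN3, an oxygen sensor (-0.23), and KDM5B (-0.16) fell. Counted in the list for DNA methylation and not in this one, the DNA hydroxylase gene TET2 fell (-0.50), while TET1 did not pass (285 and 308 CPM at 0 mM and 322 and 329.8 CPM at 4 mM, 0.13). Of 24 histone acetylation genes 6 rose and 0 fell (2 negative at an unadjusted p under 0.05, 0 in DESeq2). They were the acetyltransferase genes CREBBP (from 23.8 to 37.8 CPM (run 1) and 29.6 to 36.4 CPM (run 2), log2 change 0.42 ± 0.068 (SE), adjusted p = 1.59e-07), KAT6A (0.36), KAT7 (0.23), EP300 (0.22) and KAT6B (0.21) and the deacetylase gene SIRT1 (0.27). With the transcript length trend removed, 4 of the dioxygenases rose and 2 fell, and 4 of the acetylation genes rose and 1 fell.

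**Figure D4:**
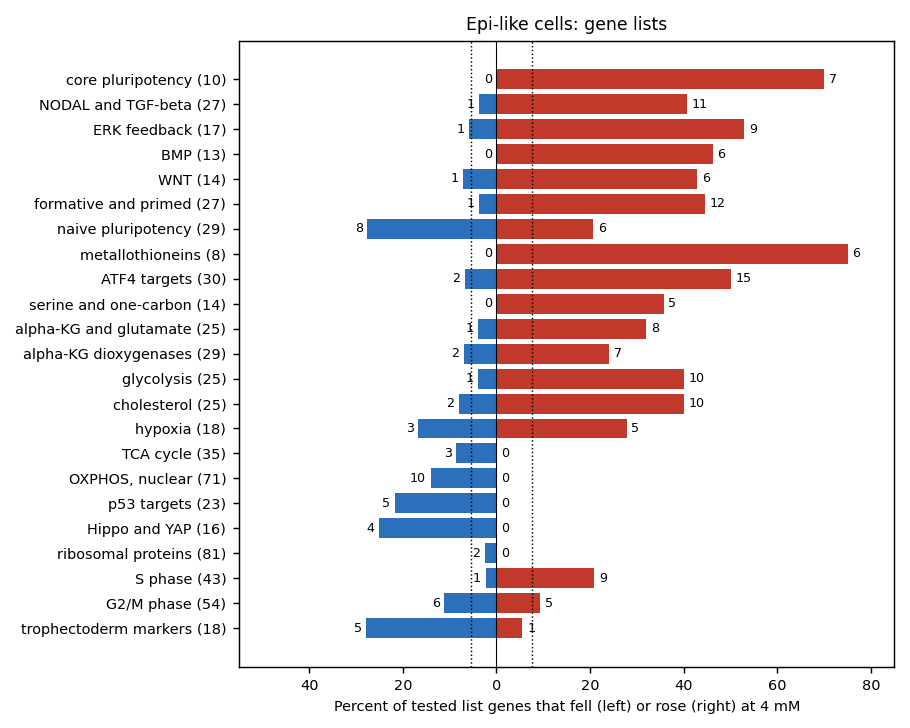
Share of the tested genes of each list that rose (right, red) or fell (left, blue) at 4 mM in Epi-like cells, with the number of genes beside each bar and the number tested in brackets. Dotted lines mark the shares over all genes tested, 7.49% and 5.45%. The shares are larger among genes at 20 CPM or more, where 738 of 5087 rose and 408 of 5087 fell. Core pluripotency holds 7 rises and 0 falls, and oxidative phosphorylation 0 rises and 10 falls.

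Stress and proliferation lists were mixed. Of 23 p53 targets 5 fell and 0 rose (0 positive at an unadjusted p under 0.05, 0 called in DESeq2 in either direction), with MDM2 at 164 and 168 CPM at 0 mM and 147 and 153 CPM at 4 mM (-0.15) and CDKN1A not passing (-0.021). Heat shock genes split 3 to 4, with HSPA8 up (0.34), HSP90AA1 down (-0.28) and HSPA1A down (-0.46, its reads perhaps not all told from those of HSPA1B). Of 43 S phase genes 9 rose and 1 fell, and of 54 G2/M genes 5 rose and 6 fell. The S phase list took 3132 CPM at 0 mM and 3487 CPM at 4 mM in run 1, and 3234 and 3480 CPM in run 2. Called on thinned cells, S phase held 36.1% of Epi-like cells at 0 mM and 44.9% at 4 mM for run 1, against 54.1% and 57.8% for run 2. The G2/M share was 54.4% and 46.1% in run 1, and 30.7% and 30.3% in run 2. Unthinned, run 2 gave 51.3% and 50.4% in G2/M, so the calls depend on depth and no cycling is read from them. Of 16 imprinted genes 1 rose and 3 fell, and of 81 ribosomal protein genes 2 fell, RPS27L among them (-0.24).

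A second question was whether dm-αKG changed Epi-like and TE-like cells of the same cultures alike. The test of the class-by-dose term on 8 sums, blocked by arm, called 85 of 13114 genes more positive in Epi-like cells (0.648%) and 77 more negative (0.587%). The TE-like sums were small, with 18, 56, 208 and 175 cells in the arms, and DESeq2 called 4 and 12. Of the 24 genes with the largest changes in Epi-like cells, 7 passed this test, 20 were measured in TE-like cells on their own, and 12 of these had the same sign there.

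ALPG fell in both classes and fell more in TE-like cells, where it stood at 550.4 and 485 CPM at 0 mM and 103 and 198 CPM at 4 mM (log2 difference 0.92 ± 0.16 (SE), adjusted p = 6.50e-06). CCND1 moved in opposite directions. It fell in Epi-like cells, as given above, and rose in TE-like cells, from 57.5 and 134 CPM at 0 mM to 225 and 201 CPM at 4 mM (log2 difference -1.56 ± 0.18 (SE), adjusted p = 1.04e-12). KRT19, a keratin of the trophectoderm, fell in Epi-like cells (from 22.0 to 19.1 CPM (run 1) and 24.4 to 19.3 CPM (run 2)) and went from 456 to 1193 CPM (run 1) and 687 to 1131 CPM (run 2) in TE-like cells (log2 difference -1.30 ± 0.16 (SE), adjusted p = 1.01e-11). In Epi-like cells KRT19 reached the required mean of 20 CPM through its 0 mM arms. That favours a fall there, so no rank is read from its place. The imprinted RNA H19 did not pass in Epi-like cells (from 31.5 to 31.9 CPM (run 1) and 36.0 to 34.9 CPM (run 2), log2 change -0.025 ± 0.066 (SE), adjusted p = 0.874) and went from 67.8 to 469.8 CPM (run 1) and 74.5 to 311 CPM (run 2) in TE-like cells (log2 difference -2.47 ± 0.18 (SE), adjusted p = 1.23e-27). LINC01356 went from 90.3 to 114 CPM (run 1) and 72.9 to 77.4 CPM (run 2) in Epi-like cells and from 41.1 to 229 CPM (run 1) and 54.8 to 186 CPM (run 2) in TE-like cells (log2 difference -1.73 ± 0.19 (SE), adjusted p = 8.29e-14). The growth inhibitor CDKN1C (log2 difference -1.30) and ARID3A (-1.22) completed the 6 largest negative differences.

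Of the 6 largest positive differences, PDPN, PMAIP1 and SPRY2 rose in Epi-like cells and fell in TE-like cells. PDPN, which encodes podoplanin, went from 94.8 to 132 CPM (run 1) and 85.0 to 107 CPM (run 2) in Epi-like cells and from 78.0 to 19.3 CPM (run 1) and 45.4 to 30.3 CPM (run 2) in TE-like cells (log2 difference 1.43 ± 0.23 (SE), adjusted p = 1.77e-06). MIR302CHG, the host transcript of the pluripotency-linked miR-302 cluster, went from 53.8 to 78.8 CPM (run 1) and 37.7 to 43.9 CPM (run 2) in Epi-like cells and from 37.0 to 11.8 CPM (run 1) and 26.0 to 16.1 CPM (run 2) in TE-like cells (log2 difference 1.41 ± 0.28 (SE), adjusted p = 0.000211). The choice required a mean of 20 CPM in both classes. MIR302CHG reached it in TE-like cells through its 0 mM arms, which favours a fall there, so no rank is read from its place. PMAIP1, which encodes the BH3-only protein NOXA, went from 92.4 to 129.9 CPM (run 1) and 93.8 to 112 CPM (run 2) and from 59.6 to 20.9 CPM (run 1) and 47.2 to 26.1 CPM (run 2) (log2 difference 1.39 ± 0.23 (SE), adjusted p = 5.76e-06). SPRY2 (1.47), MEG8 (1.39) and PLLP (1.49) were the others of the 6. For SOX2 (log2 difference 1.36 ± 0.31 (SE), adjusted p = 0.00357), NODAL (log2 difference 1.20 ± 0.33 (SE), adjusted p = 0.0336) and THY1 (log2 difference 2.58 ± 0.71 (SE), adjusted p = 0.0319) the TE-like sums held few UMIs, 4.11 and 22.8 CPM at 0 mM and 4.28 and 15.5 CPM at 4 mM for SOX2. Both runs gave the same sign of difference for each of the 12 genes in the plot of classes, which were chosen by a test on these runs.

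**Figure D5:**
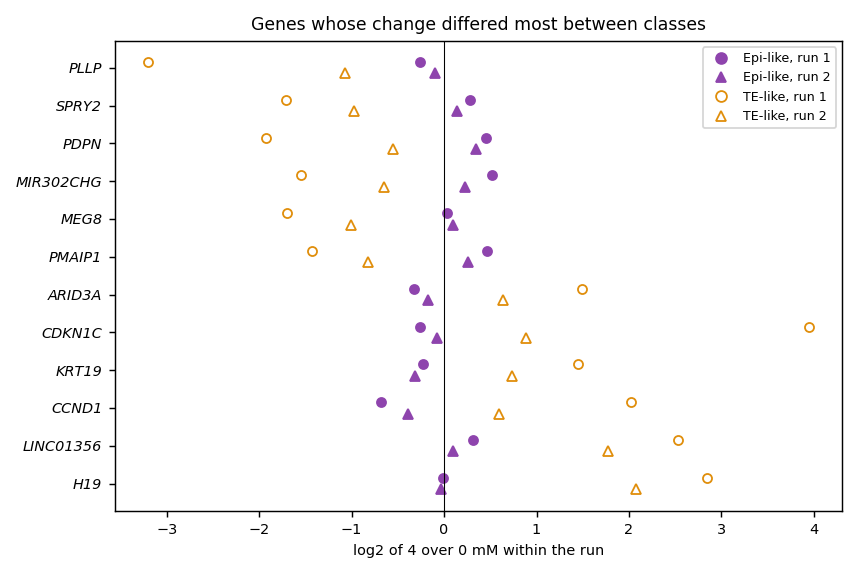
Within-run log2 ratio of 4 over 0 mM in Epi-like cells (filled) and TE-like cells (open) for the 12 genes whose change differed most between classes. Circles are run 1 and triangles run 2. TE-like points lie further from 0 than Epi-like points of the same run for all 12 genes, for example H19 at 2.85 and 2.08.

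Aggregates taken at 40 h, at the end of the dm-αKG treatment, gave 1 arm per dose (1017 cells at 0 mM and 1098 at 4 mM, run 1). They are therefore set beside the Epi-like cells with no test. FBP1 was higher at 4 mM there too, at 30.1 CPM at 0 mM and 60.9 CPM at 4 mM, and so was DDIT4, at 181 CPM at 0 mM and 312 CPM at 4 mM. ALPG stood at 462 CPM at 0 mM and 414 CPM at 4 mM, and CHAC1 at 16.6 CPM at 0 mM and 16.4 CPM at 4 mM. THY1 (0.895 CPM at 0 mM and 1.36 CPM at 4 mM) and LEFTY1 (0.895 CPM at 0 mM and 2.34 CPM at 4 mM) were far below their level in blastoids. Besides stage, the medium differed. At 40 h it held inhibitors of the ERK and TGF-β pathways, which the last blastoid medium, as the study describes it, left out. The part of the medium in these levels was not tested. CCND1 was lower at 4 mM (45.9 CPM at 0 mM and 20.9 CPM at 4 mM). CCL26 went the other way from blastoids (13.5 CPM at 0 mM and 8.05 CPM at 4 mM), as did FXYD6 (31.2 CPM at 0 mM and 49.6 CPM at 4 mM) and TJP3 (12.3 CPM at 0 mM and 19 CPM at 4 mM). Of the 24 genes with the largest changes, 15 had the same sign in aggregates as in Epi-like cells of blastoids. Of the 738 well-expressed genes that rose in Epi-like cells, 45.5% were higher at 4 mM in aggregates, close to the 43.7% over all genes at this level. With a hashtag share of at least 95%, these shares were 62.7% and 54.6%. The share of barcodes over the mitochondrial limit was 22.4% at 0 mM and 35.7% at 4 mM in aggregates, and its part in these ratios was not tested.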

How the data were processed

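The authors made the deposited UMI counts per gene and hashtag with Cell Ranger 6.1.2 on GRCh38, after bcl2fastq 2.20.0.422, and assigned cells with Seurat 4.3.0. These are raw counts from droplet 3′ libraries. Hashtag counts were used here to assign each barcode to an arm. UMIs of Epi-like cells were summed per arm, and arms, not cells, were the replicates. The test of these sums used edgeR 4.0.16 (its quasi-likelihood test, run and dose as terms, TMM, filterByExpr, Benjamini-Hochberg adjusted p under 0.05). DESeq2 1.42.0, limma 3.58.1 and other cell filters were alternatives, and 4 of them were chosen after seeing the data. Within-run ratios used a pseudocount of 0.5 CPM. The fits were tested on simulated data. Doublets were limited only by the single-hashtag rule.

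Members and the 38 gene lists were chosen with earlier results of these data known. The rule genes were left out of list counts. Named genes had a mean of 20 CPM, passed, and moved by 0.3 in both runs on the log2 scale (12 largest in each direction). From each list up to 4 passing members were named, with the gene it is known by, and from the class difference 6 in each direction. Other names were chosen after their values were seen. Transcript lengths and positions came from GENCODE on GRCh38, and promoters from RefSeq. Levels of different genes are not set against each other. Some named genes are not reported here, though they stay in the counts.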

Additional observations from a re-analysis of the deposited data

Results flagged for a closer look

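Several genes changed differently in Epi-like and in TE-like cells of the same arms, by edgeR's test of the class-by-dose term. Each value is the log2 change in Epi-like cells minus that in TE-like cells. Of genes with the largest changes in Epi-like cells, the differences were 2.58 for THY1, 2.06 for FOXD3-AS1, 1.76 for CCL26, 1.31 for BCL11A, 0.92 for ALPG, -1.56 for CCND1 and -0.74 for HILPDA. The further most negative differences were -2.47 for H19, -1.73 for LINC01356, -1.30 for KRT19, -1.30 for CDKN1C and -1.22 for ARID3A. The most positive were 1.49 for PLLP, 1.47 for SPRY2, 1.43 for PDPN, 1.41 for MIR302CHG, 1.39 for MEG8 and 1.39 for PMAIP1. Among list genes, NODAL differed by 1.20, SOX2 by 1.36, FTL by -0.63 and PHLDA1 by 1.24. The TE-like sum at 0 mM in run 1 came from 18 cells and held 486929 UMIs, so genes near 0 there, such as THY1, rest on a few UMIs.

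The 24 genes with the largest changes in Epi-like cells were also searched for opposite changes in aggregates at 40 h. CCL26, FXYD6 and TJP3 were among those that went one way in both runs of Epi-like cells and the other way in the pair of aggregate arms. The log2 ratio of 4 over 0 mM in aggregates was -0.72 for CCL26, 0.65 for FXYD6 and 0.60 for TJP3. Genes named from lists were outside this search. Of them, DNMT3B (-1.21), LIN28A (-0.66), IFI16 (1.93) and SFRP1 (0.66) also went the other way in aggregates, while NODAL (0.59) and SOX2 (0.22) kept their direction. These differences were not tested, since aggregates had 1 arm per dose.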

How the results depend on the processing

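Counts of changed genes depended on the test and on the cells more than their direction did. Rises numbered 208 with DESeq2, 8 with no run term, 428 at a hashtag share of at least 95%, 635 with equal cell numbers, and 93, 671 and 574 in G1, S or G2/M cells alone, against 1280. Falls numbered 100, 1, 270, 457, 50, 472 and 381 in the same order, and 593 with HTODemux singlets, against 932. Leaving out 1 arm, which left 3 sums and no run term, gave 0 to 377 rises and 0 to 237 falls. No gene called under both settings had the other sign. Class differences numbered 4 and 12 with DESeq2, and the more negative ones 47 with stricter class rules. As percent of UMIs, the S list differed by 0.036 and 0.025 points and the G2/M list by -0.0100 and 0.0018 points in runs 1 and 2, the last with the other sign than the phase calls. The share of aggregate genes became 62.7%. CCND2 was at -0.0058 in G1 cells alone. Without 1 arm, MT1H ranged from -0.31 to 1.51, MT1E from -0.24 to 0.84 (-0.064 without 0 mM replicate 2) and MT1G from -0.40 to 0.96 (-0.16 without that replicate). The cause was not tested. Each run held 1 arm of each dose, so the run term pairs the doses, and the fit without it is the unpaired one. TE-like values rest on 18 to 208 cells per arm.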

Other observations

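Some gene groups of Epi-like cells are not described above. Of 16 immediate early genes 3 rose and 2 fell, with ATF3 up at 25.2 and 25 CPM at 0 mM and 29.0 and 32.8 CPM at 4 mM (log2 change 0.33 ± 0.07 (SE), adjusted p = 0.000124) and JUND among the falls. Of 14 NRF2 targets 2 rose and 2 fell. Of 10 genes for DNA methylation 2 rose and 2 fell. DNMT3B rose, as given above, and DNMT3L, a cofactor of the de novo methyltransferases that marks naive cells, stood at 89.5 and 102 CPM at 0 mM and 79.9 and 90.6 CPM at 4 mM (log2 change -0.17 ± 0.056 (SE), adjusted p = 0.0281). Of 16 G1 cyclin and cyclin-kinase genes 2 rose and 2 fell, with CCND2 and CCND1 moving apart. Of 13 genes of the mitochondrial genome 0 rose and 3 fell by edgeR, with 0 positive at an unadjusted p under 0.05. DESeq2 called 0 in either direction, and HTODemux singlets gave 0 falls.

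Markers of cell types other than epiblast and trophectoderm gave few calls. Of 10 primitive endoderm markers 1 rose, PDGFRA, at 1.81 and 2.68 CPM at 0 mM and 4.89 and 4.54 CPM at 4 mM (log2 change 0.89 ± 0.15 (SE), adjusted p = 2.49e-07), named after its values were seen. Of 5 mesoderm markers 1 rose and 1 fell. Of 3 amnion, 4 germ cell and 2 fibroblast markers none passed by edgeR or DESeq2, and 1 amnion marker was positive at an unadjusted p under 0.05.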
